A study of Oryza sativa with 36 samples.

Results

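The protein phosphatase 2C (PP2C) family of rice was followed through drought stress in leaves, roots and young panicles. Its members were taken by name: every gene of the rice reference table with a symbol or synonym of the form PP2C plus a number, with or without Os. This gave 60 genes, of which 55 have a probe set on the Affymetrix rice genome array, out of 17905 genes with a probe set. OsPP2C41, OsPP2C49, OsPP2C50, OsPP2C65 and OsPP2C77 have none that matches 1 gene and were not analysed here. A probe set is a group of short oligonucleotides read as 1 value. Where a gene has several, as 12 members do, the one with the highest mean was used, and no filter on low values was applied, so all 55 were tested.

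PP2C proteins are metal-dependent phosphatases that remove phosphate from serine and threonine. Their clade A is known for its place in signalling by abscisic acid (ABA), the hormone plants make when water runs short: without ABA these phosphatases hold SnRK2 protein kinases inactive, and ABA-bound receptors of the PYR/PYL/RCAR type bind the phosphatases and release the kinases. The kinases then phosphorylate bZIP transcription factors that switch on ABA-responsive genes. Transcripts of clade A phosphatases are themselves widely known to be induced by ABA. The members of clade A with a probe set were OsPP2C06, OsPP2C08, OsPP2C09, OsPP2C30, OsPP2C51, PP2C53 and PP2C68, 7 genes in all, and the other 48 members are spread over clades known for other kinase pathways or of unknown role.

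The plants were DK151, a drought-tolerant F7 line bred from a cross of 2 introgression lines in the IR64 background, grown in a greenhouse, so every value belongs to 1 genotype. Control plants were watered, and in droughted plants the solution was drained until leaves were fully rolled at noon, at a leaf relative water content of 65% to 75%. Leaves were sampled at 3 stages (tillering, panicle elongation and booting), roots at the first 2 of them and young panicles at booting. By the methods, stress took 3 days to show in each of the earlier stages, while booting plants needed only 2 days. Leaves at booting thus differ from earlier leaves in length of stress as well as in stage, and the part of each was not tested. With a control and a droughted group each, this makes 12 groups of 3 arrays, 36 in all. Each biological replicate came from an individual plant, as the methods state. Whether leaves and roots, or leaves and young panicles, of 1 stage came from the same plants is not stated. Comparisons between tissues treated their arrays as independent. Values are normalized intensities on a linear scale, which can be set against each other for 1 probe set but not between probe sets. Changes are log2 of drought over control ± standard error, from 1 limma model over all groups. A gene is called when its Benjamini-Hochberg adjusted p over all 57194 rice probe sets is under 0.05 and its change is at least 5-fold. A 2-fold minimum is given beside it.

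In control plants the markers of each tissue were highest on the arrays labelled as that tissue. Summed intensities of leaf markers (chlorophyll and Rubisco-related genes, 6 of 7 listed were measured) were 42700 to 50610 in leaves of control plants and 340 to 7748 in roots of control plants, and root transporter markers (4 of 6 measured) were 10090 to 16340 in those roots and at most 1735 in those leaves. The panicle MADS list (10 of 10) summed to 18940 to 23290 in young panicles and to at most 5760 elsewhere. The leaf sum set tissues apart less clearly. Young panicles gave 17190 to 19250 (control) and 11230 to 13590 (drought). Droughted leaves at panicle elongation gave only 5828 to 7812, a range that holds the highest control root array (7748). RAB16B, RAB16C, RAB16D and RAB21, dehydrin genes that respond to ABA, were called higher in all 6 droughted groups, with changes of 3.19 to 8.08. Some control arrays stood apart. Replicate 2 of leaves at panicle elongation had the lowest mean correlation with its replicates (0.944, against up to 0.992 elsewhere) and the highest root sum among leaves (1735). Control roots at panicle elongation varied in their leaf sum, 340, 2521 and 7748 in replicates 1 to 3. Where leaving out the former, or replicate 3 of the latter, ended or made a call on a value printed here, or turned its direction, the value without it stands beside it.

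Across the family, most members were called at 5-fold in no comparison, and those that rose were largely clade A. Of the 55 members, 8 were called higher in at least 1 comparison at 5-fold (OsPP2C06, OsPP2C08, OsPP2C09, OsPP2C30, OsPP2C51, OsPP2C59, OsPP2C61 and PP2C68) and 4 were called lower (OsPP2C01, OsPP2C07, OsPP2C12 and OsPP2C66), with 0 in both sets and 43 in neither. The share of all genes called in at least 1 of the 6 comparisons was not computed. Such totals, here and below, are therefore not set against a background. OsPP2C51, OsPP2C59 and PP2C68 were called higher in all 6 comparisons, and OsPP2C30 joined them at the 2-fold minimum. Of these calls that of OsPP2C51 in young panicles and that of PP2C68 in roots at panicle elongation lay near 5-fold and were lost without some arrays. No member was called lower in all 6, at either minimum. The mean log2 intensity of the members' probe sets lay between 4.97 (OsPP2C31) and 10.66 (OsPP2C10), which does not order the genes by transcript level. Of the members 36 stayed above the median of all values, 59.8, on all 36 arrays. That median is over all 57194 rice probe sets, while members are read by their set of highest mean. The share of all genes above it was not computed.

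**Figure D1:**
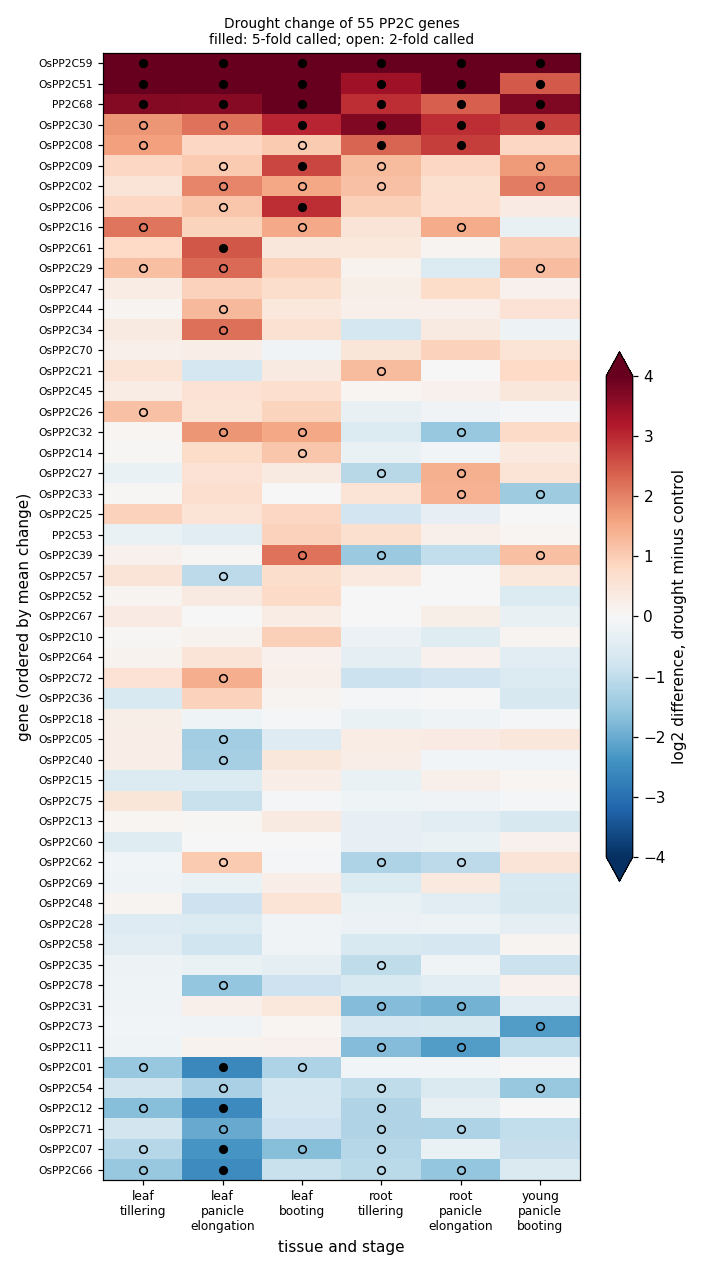
Drought change of 55 PP2C genes. Colour gives the log2 difference, drought minus control, of each gene (rows, ordered by mean change) in each tissue and stage (columns), and it saturates at 4 either way; filled circles mark calls at 5-fold and open circles calls at 2-fold only. OsPP2C59, OsPP2C51 and PP2C68 carry filled circles in all 6 columns, and the 4 filled circles on falls stand in the column of leaves at panicle elongation.

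The share of members that rose at 5-fold lay above that of all 17905 genes in each comparison. In leaves at panicle elongation it was near it, 7.27% against 4.84%. In leaves at tillering 3 members rose (OsPP2C51, OsPP2C59 and PP2C68; 1.28% of all genes) and 0 fell (1.76%). In roots at tillering 5 rose (the same 3 with OsPP2C08 and OsPP2C30; 1.33%) and 0 fell (2.61%). Leaves at panicle elongation gave 4 rises (the same 3 with OsPP2C61; 4.84%) and 4 falls (6.66%). This split moved with the scaling, to 5 rises and 1 fall under quantile normalization and to 6 and 3 under median centring. In roots at panicle elongation 5 rose (the genes of roots at tillering; 1.99%) and 0 fell (1.76%). In leaves at booting 6 rose (the same 3 with OsPP2C06, OsPP2C09 and OsPP2C30; 2.47%) and 0 fell (1.20%), and in young panicles 4 rose (the same 3 with OsPP2C30; 1.25%) and 0 fell (2.19%).

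At the 2-fold minimum the share of members that rose was 14.5% to 25.5%, above that of all genes in each comparison, while falls lay on either side of it. In leaves at tillering 8 members rose (9.01% of all genes) and 4 fell (9.34%), and in roots at tillering 8 rose (5.90%) and 11 fell (12.2%). In leaves at panicle elongation 14 rose (14.1%) and 10 fell (22.6%), and in roots of that stage 8 rose (7.20%) and 6 fell (10.6%). In leaves at booting 12 rose (11.2%) and 2 fell (8.01%), and in young panicles 8 rose (7.38%) and 3 fell (12.9%). Over the 6 comparisons 22 members rose and 19 fell at least once, and 5 did both, totals without a share of all genes beside them. From tillering through panicle elongation to booting, the median log2 change of the members was 0.12, 0.20 and 0.36 in leaves, against 0.10, −0.15 and 0.05 for all genes. In roots it was −0.25 at tillering and −0.10 at panicle elongation, against −0.07 and −0.09, and in young panicles 0.07 against −0.09.

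**Figure D2:**
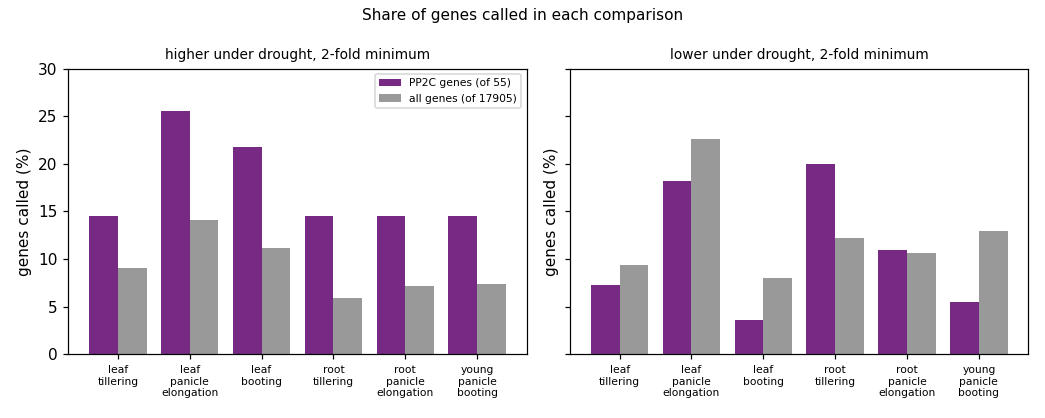
Share of genes called higher (left) or lower (right) under drought at the 2-fold minimum, in percent, for the 55 PP2C genes (purple) and all 17905 genes (grey) in each tissue and stage. The largest grey bar is the 22.6% of all genes that fell in leaves at panicle elongation, where 10 of 55 members fell.

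Clade A genes were called higher only, and the other members in both directions. At the 2-fold minimum 4, 5 and 6 of the 7 clade A genes were called higher in leaves at the 3 stages in turn, against 9.01%, 14.1% and 11.2% of all genes, 5 and 4 in roots (5.90% and 7.20%) and 4 in young panicles (7.38%), and 0 were called lower in any. Of the 48 other members 4, 9 and 6 were called higher and 4, 10 and 2 lower in leaves, where 9.34%, 22.6% and 8.01% of all genes were called lower. In roots 3 and 4 of them were higher and 11 and 6 lower (12.2% and 10.6% of all genes), and in young panicles 4 were higher and 3 lower (12.9%). The median change of the 7 was 1.64, 1.12 and 2.97 in leaves, 2.34 and 2.38 in roots and 1.69 in young panicles. That of the 48 was 0.10, 0.09 and 0.28 in leaves, −0.27 and −0.13 in roots and −0.04 in young panicles. These counts describe a grouping made with results of these arrays known, and no test was run on it.

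OsPP2C51, a clade A gene, had the largest change of any member. Its intensity was 23.9, 33.9 and 31.2 on the control arrays of leaves at panicle elongation and 3179, 3236 and 3584 on the droughted arrays, a change of 6.83 ± 0.20 or 114-fold (limma, adjusted p = 3.05e-20). The control values lay about the lower quartile of all values, 28.3, so the size of this fold depends on a dim level. With values under that quartile raised to it the change was 6.74. In leaves at tillering it was 27.7, 25.4 and 26.4 in control and 499, 371 and 439 in droughted plants, and in leaves at booting 25.7, 32.8 and 32.7 (control) and 1472, 1034 and 1488 (drought). In each leaf comparison every droughted array stood far above every control array, with changes of 4.03 ± 0.20 and 5.44 ± 0.20 for the last 2 (adjusted p = 6.89e-15 and 1.72e-17, limma).

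OsPP2C51 rose outside leaves as well. Roots gave 29.7, 52.5 and 34.5 (control) and 373, 409 and 398 (drought) at tillering, and 34.2, 32.3 and 37.3 (control) and 931, 902 and 720.0 (drought) at panicle elongation. Young panicles gave 55.5, 84.1 and 82.1 (control) and 319, 521 and 369 (drought), the smallest change at 2.44 ± 0.20 (5.42-fold). The groups did not overlap in any of these 3 comparisons. The changes in roots were 3.38 ± 0.20 and 4.61 ± 0.20, and all 3 had an adjusted p of 9.55e-11 or less (limma). The drought change was larger in leaves at panicle elongation than in leaves at tillering by 2.79 ± 0.28 (adjusted p = 1.06e-08, limma), and larger in leaves than in young panicles at booting by 3.003 ± 0.28 (adjusted p = 3.31e-09). At panicle elongation the drought change was also larger in leaves than in roots, by 2.21 (adjusted p = 3.07e-07). These differences share the arrays of leaves at panicle elongation or at booting with the changes above. A second probe set for OsPP2C51 rose in all 6 comparisons too, by 1.62 (young panicles) to 6.56 (leaves at panicle elongation), and the mean of both sets left the young panicle change at 2.03, under 5-fold. That change was also under 5-fold without control replicate 1 (2.25) or drought replicate 2 (2.24).

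PP2C68, the clade A gene also named OsPP108 and OsSIPP2C1, rose most in leaves at booting. There it was 54.5, 66.1 and 45.8 in control and 3245, 3107 and 3208 in droughted plants, a change of 5.86 ± 0.34 (58.1-fold, adjusted p = 9.11e-14, limma). Its level was 103, 145 and 95.8 (control) and 1454, 1313 and 1499.9 (drought) in leaves at tillering and 324, 302 and 412 (control) and 4547, 4062 and 4254 (drought) in leaves at panicle elongation. The droughted arrays lay at 1313 or above in all leaf groups, lowest at tillering and highest at panicle elongation. The larger change at booting came with a control mean that was the lowest of all 6 control groups, and against tillering with a higher droughted level as well. The changes in the 2 earlier leaf stages were 3.66 ± 0.34 and 3.64 ± 0.34 (adjusted p = 9.75e-10 and 3.19e-10), and the change at booting exceeded that at panicle elongation by 2.22 ± 0.47 (adjusted p = 0.000775, limma), under the 5-fold minimum.

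In young panicles PP2C68 went from 79.0, 74.8 and 56.5 to 791, 1235 and 794, and in roots at tillering from 186, 232 and 135 to 1304, 1383 and 1459. These changes were 3.73 ± 0.34 and 2.94 ± 0.34 (adjusted p = 6.78e-10 and 7.05e-08, limma), with no overlap between groups. Roots at panicle elongation gave 513, 150.0 and 849 in control and 2078, 2185 and 2028 in droughted plants. The control values there spread over a more than 5-fold range, and the change of 2.38 ± 0.34 (adjusted p = 2.36e-06) fell to 1.67 (adjusted p = 1.99e-06) without control replicate 2, under 5-fold. It was 2.06 as a ratio of linear means, also under 5-fold.

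OsPP2C30, a clade A phosphatase known to bind an ABA receptor and the kinase SAPK2, reached high and even levels under drought from uneven control levels. Roots at tillering gave 128, 122 and 74.1 in control and 1239, 1337 and 1553 in droughted plants, its largest change at 3.71 ± 0.52 (13.1-fold, adjusted p = 1.91e-06, limma). Roots at panicle elongation gave 381, 105 and 761 (control) and 2294, 2474 and 2446 (drought), and young panicles 535, 390.3 and 419 (control) and 2773, 3364 and 2789.9 (drought). Every droughted array was above every control array of its comparison, with changes of 2.94 ± 0.52 and 2.74 ± 0.52 (adjusted p = 5.42e-05 and 0.000118). The root change at panicle elongation was 2.16 without control replicate 2 and 3.58 without control replicate 3.

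In leaves OsPP2C30 was already present in control plants. It was 1362, 1214 and 320.1 (control) and 2845, 2711 and 2729.7 (drought) at tillering, 2271, 577 and 2421 (control) and 6705, 6269 and 6849 (drought) at panicle elongation, and 814, 412 and 815 (control) and 5481, 4917 and 5600.2 (drought) at booting. In each stage 1 control array lay well below the other 2, and the droughted arrays were within a narrow range. The changes were 1.77 ± 0.52, 2.17 ± 0.52 and 3.04 ± 0.52 (adjusted p = 0.00632, 0.000833 and 2.79e-05, limma), of which only the last passed 5-fold. Without the low control array the tillering change was 1.10 (adjusted p = 0.0873) and the panicle elongation change 1.49 (adjusted p = 0.0164). The change was smaller in leaves than in roots at tillering, with a difference of −1.94 ± 0.73 (adjusted p = 0.0415), which did not reach 5-fold.

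OsPP2C08, also of clade A, was called at 5-fold in roots alone. Roots gave 346, 319 and 215 in control and 1342, 1461 and 1575 in droughted plants at tillering, and 329, 268 and 239 (control) and 2125, 1982 and 1581 (drought) at panicle elongation. The groups did not overlap, and the changes were 2.34 ± 0.40 and 2.77 ± 0.40 (adjusted p = 3.81e-05 and 3.24e-06, limma). The tillering change lay at the minimum, 5.07-fold, and was 2.13 without control replicate 3. In leaves at panicle elongation the gene gave 1063, 188 and 1156 in control and 1115, 1040.1 and 1125 in droughted plants, so control replicates 1 and 3 were level with the droughted arrays and replicate 2 was far below them. That change was 0.83 ± 0.40 (adjusted p = 0.0862) with all arrays and −0.02 (adjusted p = 0.959) without control replicate 2. The drought change in leaves was below that in roots of this stage by 1.94 (log2 difference −1.94, adjusted p = 0.00741). Without control replicate 2 of leaves the difference was −2.79 (adjusted p = 2.96e-07), past 5-fold.

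In the remaining tissues OsPP2C08 was 815, 689 and 299 (control) and 1646, 1790.3 and 1705 (drought) in leaves at tillering, 1154, 1276 and 1097 (control) and 2169, 2579 and 2529 (drought) in leaves at booting, and 1393, 900.2 and 861 (control) and 1732, 1803 and 1874 (drought) in young panicles. Droughted arrays were above control arrays in all 3, by 1.64 ± 0.40 (adjusted p = 0.00142), 1.04 ± 0.40 (adjusted p = 0.0402) and 0.81 ± 0.40 (adjusted p = 0.145, limma), the last not passing the test. The change at booting lost its adjusted p under 0.05 when any 1 of its 6 arrays was left out.

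OsPP2C06 and OsPP2C09 rose by 5-fold or more in leaves at booting only. OsPP2C06, also named ABIL1, gave 517, 458 and 446 in control and 4199, 3395 and 3543 in droughted leaves, a change of 2.97 ± 0.16 (7.82-fold, adjusted p = 2.87e-14, limma). In young panicles of the same stage it gave 1234, 994 and 909 (control) and 1191, 1517 and 1257 (drought), which overlapped, with a change of 0.34 ± 0.16 (adjusted p = 0.125). The difference between these changes was 2.63 ± 0.23 (adjusted p = 8.94e-10), and that between leaves at booting and at panicle elongation was 1.84 ± 0.23 (adjusted p = 6.89e-07, limma). The droughted means of OsPP2C06 in these 2 leaf groups were alike, 3712 at booting and 3781 at panicle elongation. Its control means were 474 and 1737 in turn, so the difference lay in the control level. In the other leaf and root groups its changes were 0.66 to 1.12, all with an adjusted p under 0.05.

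OsPP2C09 gave 677, 535 and 566 in control and 3772, 3869.9 and 3664 in droughted leaves at booting, a change of 2.68 ± 0.17 (6.39-fold, adjusted p = 5.48e-13, limma). Young panicles gave 772, 556 and 511 (control) and 1814, 2042 and 2005 (drought), a change of 1.69 ± 0.17 (adjusted p = 3.9e-09). The groups were apart in both, and the leaf change was larger by 0.98 ± 0.24 (adjusted p = 0.00219). At tillering and panicle elongation its changes were 0.84 to 1.27, all with an adjusted p under 0.05. In leaves its control means were 1216, 1384 and 592 at the 3 stages in turn, and its droughted means 2162, 2828 and 3769. The larger change at booting thus came with a lower control level as well as a higher droughted level.

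PP2C53 (ABIL2), known in rice as a negative regulator of ABA responses, was the clade A gene that was called in no comparison. Its intensity was 314, 251 and 266 in control and 576, 492 and 517 in droughted leaves at booting, its largest change at 0.94 ± 0.17 (adjusted p = 5.36e-05, limma). In leaves at panicle elongation it was 647, 1034 and 648 (control) and 672, 476 and 579 (drought), a change of −0.41 ± 0.17 (adjusted p = 0.043) that was −0.18 (adjusted p = 0.372) without control replicate 2. It rose in roots at tillering by 0.63 (adjusted p = 0.00456), and the remaining changes, −0.27, 0.19 and 0.07, did not pass the test.

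**Figure D3:**
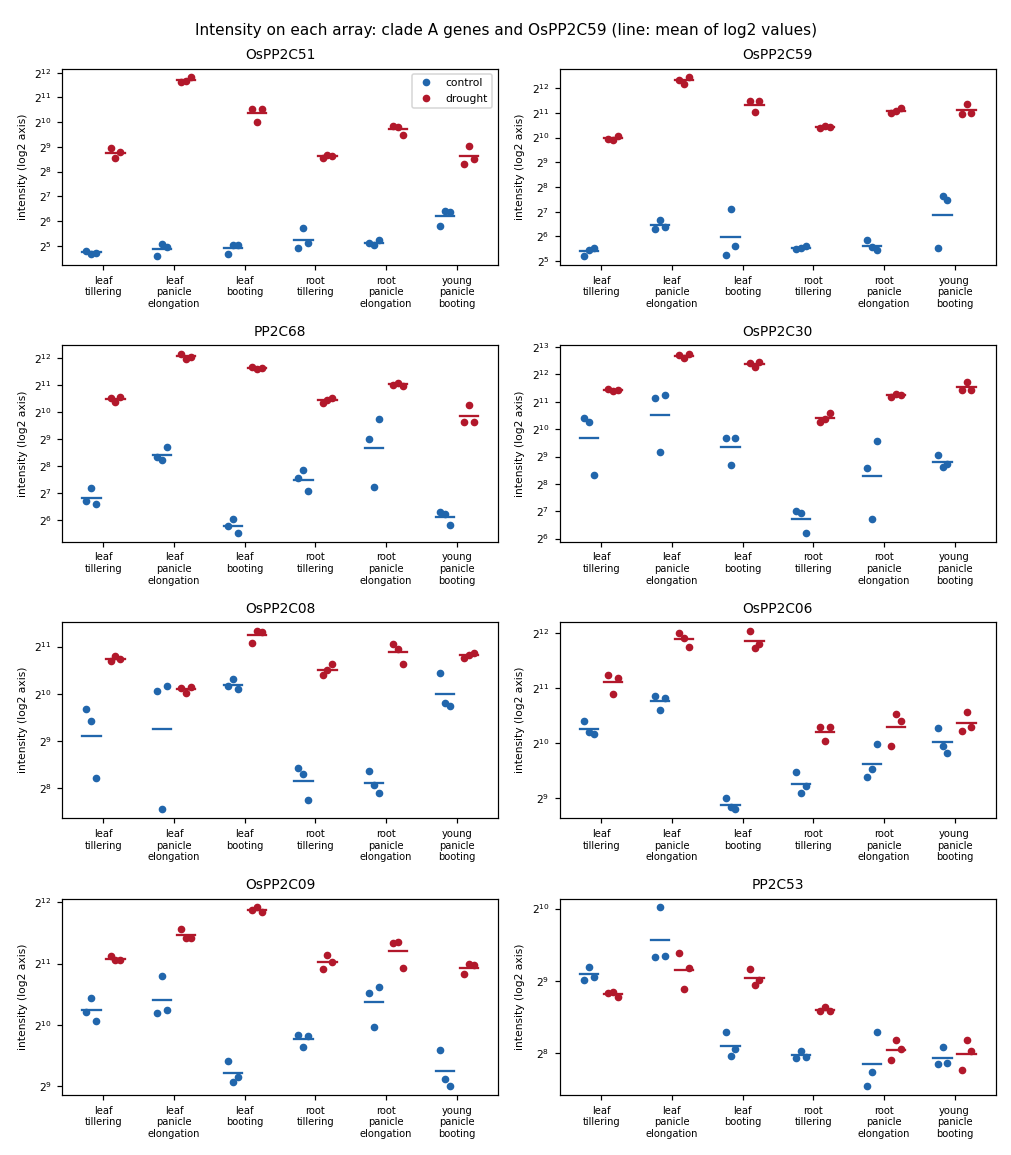
Intensity on each array of the 7 clade A genes and OsPP2C59 (log2 axis), control in blue and drought in red, by tissue and stage; points are the 3 arrays of a group and lines the mean of their log2 values. OsPP2C51, OsPP2C59 and PP2C68 separate in all 6 comparisons, while OsPP2C08 and OsPP2C30 show single low control arrays in leaves (188 and 577 in replicate 2 at panicle elongation).

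OsPP2C59, the other member called in all 6 comparisons, rose in every tissue and stage. Leaves gave 36.9, 43.2 and 46.5 in control and 987, 955 and 1079 in droughted plants at tillering, 79.5, 103 and 84.5 (control) and 5162, 4571 and 5508 (drought) at panicle elongation, and 38.0, 139 and 48.8 (control) and 2869, 2080.4 and 2869.9 (drought) at booting. Roots gave 44.6, 46.3 and 48.4 (control) and 1338, 1427 and 1379 (drought) at tillering, and 58.7, 47.7 and 43.4 (control) and 2039.7, 2143 and 2322 (drought) at panicle elongation. Young panicles gave 46.01, 198 and 179 (control) and 2006, 2632 and 2019.7 (drought). Droughted arrays were at 955 or above and control arrays at 198 or below in all groups, so the groups never overlapped. The changes ran from 4.22 ± 0.36 (18.7-fold, young panicles, adjusted p = 2.53e-10) to 5.84 ± 0.36 (57.4-fold, leaves at panicle elongation, adjusted p = 7.94e-14, limma). The change in young panicles was 3.54 without control replicate 1, the low one of the 3. None of the 6 differences between its changes passed the test, the largest being 1.26 ± 0.51 for leaves at panicle elongation against tillering (adjusted p = 0.058).

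Beyond these, OsPP2C61 was the other member called higher at 5-fold, in leaves at panicle elongation only. It gave 86.5, 146 and 80.6 in control and 591, 511 and 573 in droughted leaves at panicle elongation, a change of 2.47 ± 0.35 (5.54-fold, adjusted p = 8.12e-07, limma). In roots of that stage it gave 28.6, 28.1 and 119 (control) and 43.1, 45.98 and 62.3 (drought), where control replicate 3, the array with the highest leaf marker sum among control roots, was above all droughted arrays. Its change in leaves exceeded that in roots by 2.35 ± 0.49 (adjusted p = 0.00037), or by 1.66 without that array. The leaf change was 2.31 without control replicate 3 of leaves, just under 5-fold. The part of leaf RNA in that root array was not tested.

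At the 2-fold minimum OsPP2C02 rose in 4 comparisons, by 1.16 ± 0.22 in roots at tillering, 1.94 ± 0.22 in leaves at panicle elongation, 1.55 ± 0.22 in leaves at booting and 2.06 ± 0.22 in young panicles (adjusted p = 0.000137, 1.58e-08, 1.86e-06 and 1.5e-08, limma). OsPP2C16 rose in leaves at tillering by 2.15 ± 0.27, in leaves at booting by 1.51 and in roots at panicle elongation by 1.48. Its control values there were dim, 18.3 to 25.2, 21.9 to 44.9 and 20.8 to 33.9 in turn. They lay about the lower quartile of all values, 28.3, so the size of these changes depends on a dim level. OsPP2C34, known as the benzothiadiazole-induced BIPP2C2, rose by 2.21 ± 0.22 (adjusted p = 1.98e-09) in leaves at panicle elongation alone, and passed 5-fold there under median centring.

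With all arrays and the probe set of highest mean for each gene, every fall of 5-fold or more was in leaves at panicle elongation. There 4 members were called lower. OsPP2C01 gave 896, 1437 and 892 in control and 176, 169 and 182 in droughted plants, a change of −2.57 ± 0.14 (adjusted p = 3.46e-15, limma). OsPP2C12 gave 394, 466 and 497 (control) and 69.1, 77.3 and 86.6 (drought), a change of −2.54 ± 0.26 (adjusted p = 2.5e-09). The droughted arrays lay below all control arrays for both genes. OsPP2C66 went from 496, 886 and 417 to 92.9, 126 and 84.4, a change of −2.51 ± 0.19 (adjusted p = 8.71e-12), and OsPP2C07 from 508, 310.1 and 604 to 91.9, 86.8 and 87.9, a change of −2.36 ± 0.18 (adjusted p = 7.1e-12).

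The 4 falls were near the 5-fold minimum. Under quantile normalization the changes of OsPP2C01, OsPP2C07 and OsPP2C66 were −2.19, −2.14 and −2.24, and that of OsPP2C07 was −2.23 under median centring, all with an adjusted p under 0.05. OsPP2C66 was −2.19 and OsPP2C01 −2.35 without control replicate 2, and OsPP2C07 was −2.29 and −2.16 without control replicates 1 and 3. In this comparison 5 of 6 leaf markers were also called lower, and the leaf marker sum was 46400 to 48610 in control and 5828 to 7812 in droughted leaves. Their part in these falls was not tested, and in whole organs fewer cells of a type and less RNA per cell cannot be told apart. A second probe set of OsPP2C66 changed by −2.81 on the log2 scale in these leaves, while another gave 0.27 (adjusted p = 0.0623), and the second set of OsPP2C07 gave −2.11.

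In other tissues the same genes moved less. OsPP2C01 fell in leaves at tillering, from 912, 907 and 985 to 319, 312 and 346 (−1.52 ± 0.14, adjusted p = 7.25e-10), and at booting, from 722, 575 and 838 to 275, 319.5 and 303 (−1.24 ± 0.14, adjusted p = 3.88e-08). In roots and young panicles, where its intensity was 52.1 to 82.98 with or without drought, its changes were −0.11, −0.10 and −0.01, and none passed the test. OsPP2C12 fell at tillering in leaves (−1.70 ± 0.26, adjusted p = 5.39e-06) and roots (−1.22 ± 0.26, adjusted p = 0.000602, limma). OsPP2C07 fell at least 2-fold in leaves at tillering and booting and in roots at tillering (−1.15, −1.69 and −1.15). OsPP2C66 fell at least 2-fold in leaves (−1.53) and roots (−1.09) at tillering and in roots at panicle elongation (−1.53), and its remaining changes were −0.88 in leaves at booting and −0.58 in young panicles.

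Some members fell in roots at the 2-fold minimum, and of these OsPP2C66 and OsPP2C71 fell at least 2-fold in leaves as well. OsPP2C11 gave 931, 849 and 843 in control and 289, 219.6 and 284 in droughted roots at tillering, and 564, 1072 and 621 (control) and 118, 178 and 167 (drought) at panicle elongation. Droughted roots were below control roots on every array, with changes of −1.74 ± 0.37 (adjusted p = 0.000614) and −2.25 ± 0.37 (adjusted p = 2.56e-05, limma). The latter was −2.36 without control replicate 3, past 5-fold. Young panicles gave 374, 439 and 365 (control) and 172, 206 and 216 (drought) for OsPP2C11, also without overlap, but it was not called there at either minimum. In roots OsPP2C31 gave 189.5, 154 and 158 (control) and 45.0, 42.8 and 66.4 (drought) at tillering. At panicle elongation it gave 96.0, 149.6 and 63.6 (control) and 28.1, 23.4 and 27.3 (drought). Its changes in roots were −1.73 ± 0.22 and −1.89 ± 0.22 (adjusted p = 6.31e-07 and 1.28e-07, limma). It was under 30 on all arrays of leaves and young panicles. OsPP2C62, OsPP2C66 and OsPP2C71 also fell in roots of both stages, with changes of −1.53 (OsPP2C66, panicle elongation) to −1.06 (OsPP2C62, panicle elongation). The root marker sum also fell, from 10090 to 16340 in control to 5792 to 6843 in droughted roots, and its part in these falls was not tested. OsPP2C35, known as XB15 and as a negative regulator of the XA21 immune receptor, fell in roots at tillering, with a log2 change of −1.002 (adjusted p = 2e-04).

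OsPP2C71 fell in all 6 comparisons, from −0.75 ± 0.20 in leaves at tillering to −2.02 ± 0.20 in leaves at panicle elongation, each with an adjusted p of 0.00306 or less (limma). In the latter it gave 989, 2121 and 974 in control and 328, 293 and 318 in droughted plants, with no overlap, and without control replicate 2, the high one, the change was −1.65. Its second probe set had changes of −0.73 (young panicles) to −2.78 (leaves at panicle elongation). OsPP2C54 likewise had an adjusted p under 0.05 in each comparison, with changes of −0.59 to −1.53, the largest fall being in young panicles (adjusted p = 1.03e-07).

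**Figure D4:**
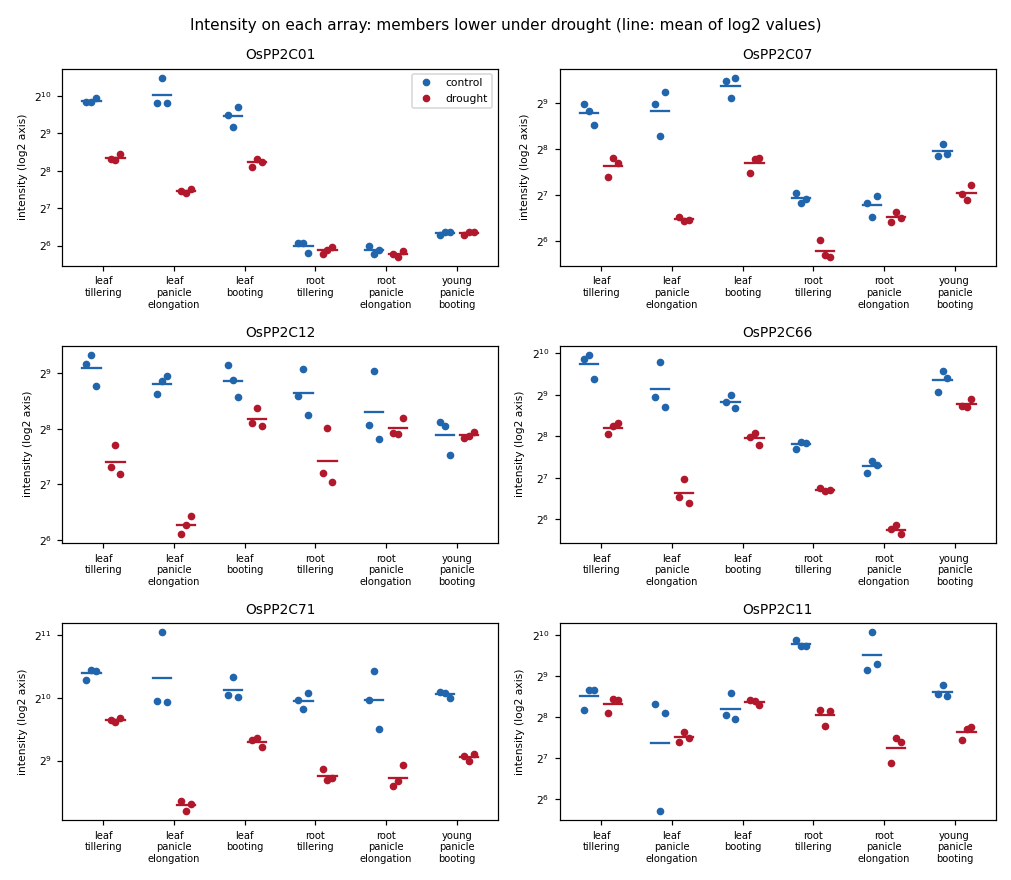
Intensity on each array of 6 members that were lower under drought (log2 axis), control in blue and drought in red, by tissue and stage; points are the 3 arrays of a group and lines the mean of their log2 values. OsPP2C01, OsPP2C07, OsPP2C12 and OsPP2C66 separate in leaves at panicle elongation, and OsPP2C11 separates in roots of both stages.

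The change under drought was compared between tissues of 1 stage and between stages of 1 tissue, 6 comparisons that share arrays with those above. For leaves at booting against panicle elongation the length of stress differed along with the stage. Members called at 5-fold numbered 0 for leaves against roots at tillering (4.82% of all genes), 5 for leaves against roots at panicle elongation (10.8%), 3 for leaves against young panicles at booting (5.09%), 1 for leaves at panicle elongation against tillering (8.28%), 0 for leaves at booting against panicle elongation (4.31%) and 1 for roots at panicle elongation against tillering (0.536%). The 5 are OsPP2C01, OsPP2C11, OsPP2C29, OsPP2C32 and OsPP2C61, the 3 are OsPP2C06, OsPP2C51 and OsPP2C73, and the single genes are OsPP2C51 and OsPP2C27. Each share of members was near or below its background, other than that of roots between stages, which is 1 gene.

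Opposite movements were found in leaves and roots at panicle elongation. OsPP2C32 gave 199, 329 and 195 in control and 772, 761 and 843 in droughted leaves, a rise of 1.76 ± 0.42 (adjusted p = 0.000959, limma). Roots gave 494, 469 and 2059.8 (control) and 171, 441 and 264 (drought), a change of −1.53 ± 0.42 (adjusted p = 0.00696). The root fall rested on control replicate 3, the highest of its values, and without it was −0.83 (adjusted p = 0.119). The difference between leaves and roots was 3.29 ± 0.60 (adjusted p = 6.84e-05) and stayed at 2.59 without that array. OsPP2C62 rose in leaves by 1.06 ± 0.16 and fell in roots, with a change of −1.06 ± 0.16 (adjusted p = 3.53e-06 and 9.68e-06), with 398, 230.3 and 299.6 (control) and 569, 639.8 and 685 (drought) in leaves and 1188, 1223 and 1215 (control) and 507, 529.9 and 723 (drought) in roots. The groups did not overlap in either tissue, and the leaf change was 0.87, under 2-fold, without control replicate 2.

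OsPP2C29 gave 251, 138 and 264 in control and 954, 1049.9 and 991 in droughted leaves at panicle elongation, a rise of 2.25 ± 0.31 (adjusted p = 6.71e-07, limma). In roots it gave 299.8, 325 and 1010.0 (control) and 316, 331 and 311 (drought), where control replicate 3 again stood alone, with a change of −0.53 ± 0.31 (adjusted p = 0.233), or 0.03 without it. Its difference between the tissues was 2.78 ± 0.44 (adjusted p = 1.12e-05), and 2.22 without that root array, under 5-fold. For OsPP2C11 the difference was 2.38 ± 0.53 (adjusted p = 0.000646), or 1.54 without control replicate 2 of leaves, where its value was 52.0 against 317 and 273. Its leaf change went from 0.13 to −0.71 without that array. For OsPP2C01 the difference was −2.47 ± 0.19 (adjusted p = 5.36e-11), or −2.24, under 5-fold, without control replicate 2 of leaves. Calls in this comparison were 4 higher and 1 lower in leaves, against 4 and 0 under quantile normalization and 5 and 1 under median centring.

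OsPP2C27 moved in opposite directions in roots of the 2 stages. It gave 364, 549.9 and 469.6 in control and 212, 235 and 188 in droughted roots at tillering, and 378, 353 and 399 (control) and 814, 1016 and 1259.9 (drought) at panicle elongation. Droughted roots were below all controls at tillering and above all controls at panicle elongation, with changes of −1.11 ± 0.32 (adjusted p = 0.0089) and 1.43 ± 0.32 (adjusted p = 0.000948, limma). The difference was 2.54 ± 0.45 (adjusted p = 0.000524), and 2.39 to 2.70 with any 1 of the 12 arrays left out. The tillering fall had an adjusted p of 0.052 without control replicate 2. In leaves at panicle elongation the gene gave 2122, 454 and 2089 in control and 1954, 1646 and 2086 in droughted plants, and control replicate 2 was again the low array.

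OsPP2C39 fell in roots and rose at booting. Roots at tillering gave 1575, 1331 and 1653 in control and 533, 542 and 547 in droughted plants (−1.49 ± 0.29, adjusted p = 0.000251), and leaves at booting gave 184, 203 and 219 (control) and 942, 906 and 884 (drought) (2.18 ± 0.29, adjusted p = 9.98e-07, limma). In both the groups were apart. Its second probe set gave −1.56 and 2.57 in these comparisons, but −1.31 in young panicles (adjusted p = 0.0157), where the brighter one gave 1.22 (adjusted p = 0.00193). In roots at panicle elongation the second set gave −2.44 (adjusted p = 3.01e-05, limma), past 5-fold. The brighter set fell there too, from 1163, 1737 and 1133 in control to 589, 648 and 750 in droughted roots, without overlap. Its fall lay just short of 2-fold with all arrays, so it was not called at either minimum, and was past 2-fold without control replicate 3. OsPP2C33 rose in roots at panicle elongation, from 279.9, 246 and 248 to 657, 675 and 700.2 (1.395 ± 0.11, adjusted p = 2.06e-11), and fell in young panicles, from 667, 792 and 719 to 282, 237 and 287 (−1.44 ± 0.11, adjusted p = 1.28e-11).

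Levels in control plants also set some members apart by tissue. Of the 55, 4 were called at the 5-fold minimum for leaves against roots at tillering (15.3% of all genes), 2 for the same tissues at panicle elongation (16.5%) and 6 for young panicles against leaves at booting (16.2%). OsPP2C05 gave 1953, 1727 and 1883 in leaves and 209, 102 and 201 in roots at tillering, 1880.5, 3021 and 1878 and 97.8, 125 and 130.4 at panicle elongation, and 2504, 2507 and 2766 in leaves and 271, 292 and 276 in young panicles at booting. It was higher in leaves in each, by 3.51 ± 0.22 and 4.24 ± 0.22 against roots, and its difference of young panicles from leaves was −3.21 ± 0.22 (adjusted p = 7.9e-14, 1.05e-15 and 5.49e-13, limma). Without control replicate 2 of leaves the difference of OsPP2C05 at panicle elongation was 4.01. OsPP2C01 showed the same order, with 3.88 ± 0.14, 4.15 ± 0.14 and −3.12 ± 0.14.

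At tillering OsPP2C30 was higher in leaves than in roots by 2.95 ± 0.52 (adjusted p = 1.89e-05), and OsPP2C31 was lower in leaves, at −2.91 ± 0.22 (adjusted p = 4.87e-12, limma). Between leaves and roots at panicle elongation the count of members was 2 with all arrays and reached 5 without control replicate 2 of leaves or control replicate 3 of roots, and 4 without either of the other 2 leaf controls.

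In young panicles of control plants OsPP2C33, OsPP2C48, OsPP2C69 and OsPP2C73 were higher than in leaves of that stage. OsPP2C33 gave 75.4, 68.8 and 63.7 in leaves and 667, 792 and 719 in young panicles (3.39 ± 0.11, adjusted p = 1.38e-20). OsPP2C69 gave 21.2, 21.6 and 27.3 and 194, 243 and 231 (3.26 ± 0.16, adjusted p = 1.12e-16), and OsPP2C48 gave 135, 117 and 78.5 and 891, 756 and 733 (2.88 ± 0.25, adjusted p = 5.32e-11, limma). The young panicle arrays stood above all leaf arrays for each of them. With the mean of all its probe sets OsPP2C48 differed by 1.66, under 5-fold. OsPP2C69 was under 52 on every array outside young panicles.

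OsPP2C73 was high in young panicles of control plants and fell there under drought. Its brightest probe set gave 764, 662 and 626 in control and 146, 116 and 174 in droughted young panicles, a change of −2.25 ± 0.17 (adjusted p = 2.75e-11, limma), and 56.5, 46.8 and 57.9 (control) and 56.5, 60.1 and 53.4 (drought) in leaves at booting (0.08 ± 0.17, adjusted p = 0.756). Its control level was higher in young panicles than in leaves by 3.67 ± 0.17. This set is of a kind that can bind several transcripts, and the 3 other sets of the gene disagree with each other: they gave −2.57, −2.11 and −0.09 in young panicles under drought, and 0.80, 0.10 and −2.21 in leaves at booting. When sets that can bind several transcripts were left out, the difference of young panicles from leaves in control plants turned to −3.65, and the difference in drought change between leaves and young panicles turned from 2.33 to −2.12. The direction for this gene is thus tied to the probe set.

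**Figure D5:**
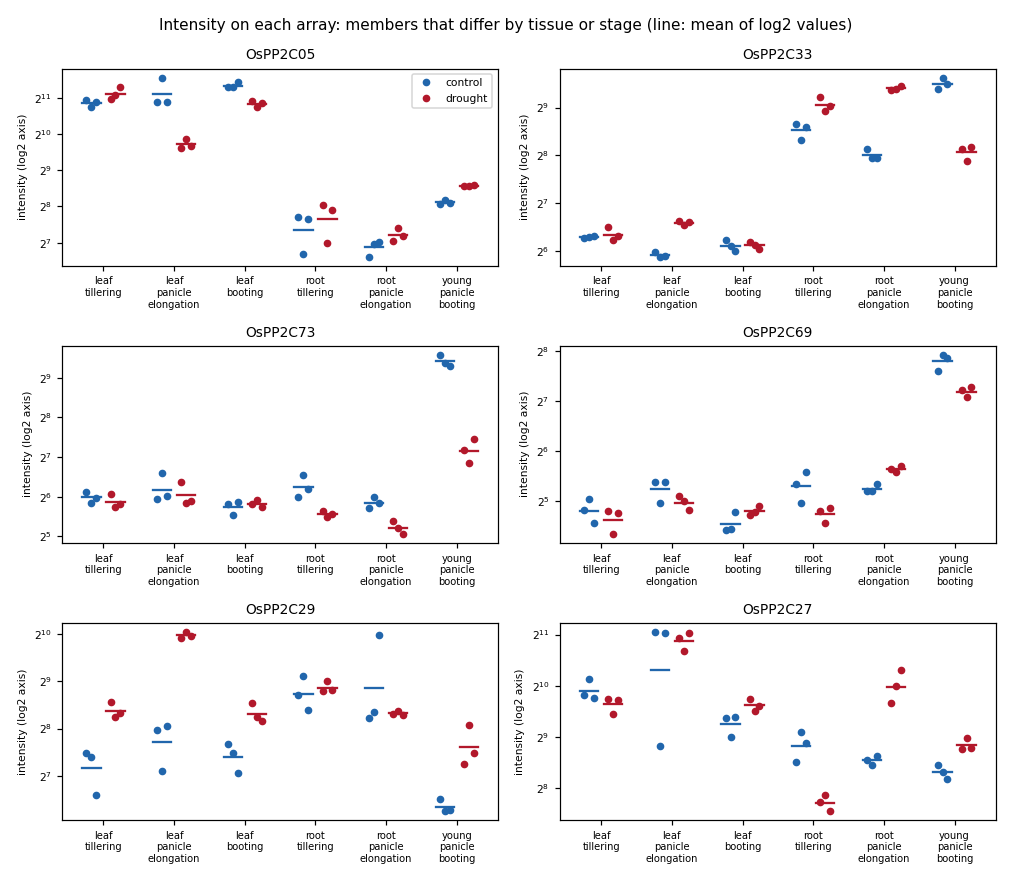
Intensity on each array of 6 members whose level or drought change differed by tissue or stage (log2 axis), control in blue and drought in red; points are the 3 arrays of a group and lines the mean of their log2 values. OsPP2C05 is above 780 in all leaf groups and below 390 elsewhere, OsPP2C33, OsPP2C69 and OsPP2C73 have their highest means in control young panicles, and OsPP2C27 falls in roots at tillering and rises in roots at panicle elongation.

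With the probe set of highest mean, the other 19 members were called in no drought comparison at either minimum, with changes between −0.90 and 0.95. They are OsPP2C10, OsPP2C13, OsPP2C15, OsPP2C18, OsPP2C25, OsPP2C28, OsPP2C36, OsPP2C45, OsPP2C47, OsPP2C48, OsPP2C52, PP2C53, OsPP2C58, OsPP2C60, OsPP2C64, OsPP2C67, OsPP2C69, OsPP2C70 and OsPP2C75. Of these OsPP2C47 changed by 1.13 in leaves at panicle elongation without control replicate 2 (adjusted p = 1.85e-07), and OsPP2C70 by 1.004 in roots of that stage without control replicate 3 (adjusted p = 4.18e-08), both past 2-fold. Further probe sets of the 19, where they have any, were not part of that count, and some were called at 2-fold. A second set of OsPP2C47 gave 1.15 in leaves at panicle elongation (adjusted p = 3.29e-07, limma). A dimmer set of OsPP2C48 gave −1.04 in roots at tillering (adjusted p = 0.000915, limma). A dimmer set of OsPP2C75 gave −1.33 in roots at panicle elongation and in young panicles (adjusted p = 4.66e-05 and 3.75e-05, limma). OsPP2C13, known as DCW11 from work on cytoplasmic male sterility in rice, had changes of −0.65 in young panicles and 0.36 in leaves at booting.

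Genes of the SnRK2 kinase family changed in both directions. Which of them clade A phosphatases act on was not tested here. All 10 SnRK2 kinases of rice, OsSAPK1 to OsSAPK10, had a probe set. At the 2-fold minimum 4, 6 and 5 of them rose in leaves at the 3 stages in turn (9.01%, 14.1% and 11.2% of all genes), 3 and 2 in roots (5.90% and 7.20%) and 2 in young panicles (7.38%), while 1 fell in leaves at panicle elongation (22.6%) and 1 in roots at tillering (12.2%). Their median change was 0.70, 1.36 and 1.07 in leaves, 0.00 and 0.06 in roots and −0.01 in young panicles. OsSAPK1 rose most in roots at panicle elongation, by 2.95 (adjusted p = 5.63e-09, limma), from 334 ± 175 to 2368 ± 27.7 (mean ± SD, n = 3), and by 3.35 without control replicate 3. Without that array 3 kinases rose in these roots in place of 2. OsSAPK9 rose most in leaves at panicle elongation, by 3.10 (adjusted p = 2.08e-05), from 198 ± 127 to 1336 ± 215, and by 2.29 (adjusted p = 0.000425), under 5-fold, without control replicate 2. OsSAPK3 fell in roots at tillering, at −1.52 (adjusted p = 7.29e-08), and rose in leaves at booting, by 1.97 (adjusted p = 5.76e-10).

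Few other genes of the pathway were matched. Of ABA receptors 1 gene, OsPYL11, was found by name in the reference table, and the others were not analysed here. Its changes of −0.70 to 0.75 were under 2-fold. The bZIP factors ABF2 (also OsBZIP23) and TRAB1, both activators of ABA-responsive genes, rose together. ABF2 rose by 3.67 in leaves at booting (adjusted p = 3.1e-13, limma), its largest change, and by 0.74 to 1.74 elsewhere, and TRAB1 rose by 0.88 to 2.05, with an adjusted p under 0.05 in all 6 comparisons for both. The ABA synthesis gene ABA1, zeaxanthin epoxidase, rose at least 2-fold in roots at panicle elongation alone (1.18, adjusted p = 4.41e-06). The other match of that list, aba1, is the TRAB1 gene under another name. Of the ABA 8′-hydroxylases, which break ABA down, ABA8OX2 rose in roots, by 2.65 at tillering and 2.08 at panicle elongation (adjusted p = 9e-09 and 6.32e-07), and gave −0.62 to 0.52 in leaves and young panicles, where no change passed the test. ABA8OX1 rose in leaves and young panicles, by 1.06 to 2.33, each with an adjusted p under 0.05, and gave 0.23 and 0.11 in roots, where neither change passed it.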

How the data were processed

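RNA of 36 samples, 3 for each of 12 groups, was hybridized to Affymetrix rice genome arrays. The authors processed the scanned images with GCOS1.4 and applied dChip's invariant-set normalization; they deposited intensities, 1 per probe set and array, not log-transformed. The dChip version and the use of mismatch probes are not given in the sources used here. Values under 1 (885 values) were set to 1 and log2 was taken. The 187 control and reporter probe sets were left out, which leaves 57194. Of these, 22436 match 1 gene, 95 several and 34663 none in the platform's annotation, and names come from a reference table of assembly ASM3414082v1.

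A limma model (limma 3.58.1 under R 4.3.3) with a mean per group was fitted to all arrays and gave 24 residual and 3.76 prior degrees of freedom. Called genes have a Benjamini-Hochberg adjusted p under 0.05 and a change of at least 5-fold, or 2-fold where stated. The design was a split-plot with blocks, but the labels do not say what replicate numbers mark, and no scan date or batch is given, so batches were not tested. The model was also run on simulated data, made with independent normal noise around the fitted group means. Those data held no arrays that stand apart, so the run cannot show how such arrays affect the calls. Array medians were 55.0 to 64.0, and 3 arrays per group limit the precision.

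The genes named were all clade A members with a probe set, the called members with the 5 largest rises and falls per drought comparison, the 3 largest differences per other comparison, the members of highest and lowest mean, and, in pathway lists, the called genes with the largest rise and fall. Any further member is named with its values known. The members and lists were chosen with earlier results of these data known. Alternatives were the methods' t-test, ratios of linear means, a fit of each comparison alone, a variance trend with intensity, a floor of 28.3 (the lower quartile of all values), a filter on dim probe sets (38298 kept, with all 55 members), quantile normalization, median centring, the mean of all probe sets of a gene, no probe sets that may bind several transcripts (47225 kept, which left 2 members without any), a replicate block and each array left out.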

Additional observations from a re-analysis of the deposited data

Results flagged for a closer look

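In 10 cases the drought change of a member differed by 5-fold or more between tissues or stages, as tested by limma's interaction contrast with an adjusted p under 0.05. Between leaves and roots at panicle elongation the log2 differences, leaves minus roots, were −2.47 for OsPP2C01, 2.38 for OsPP2C11, 2.78 for OsPP2C29, 3.29 for OsPP2C32 and 2.35 for OsPP2C61. Between leaves and young panicles at booting they were 2.63 for OsPP2C06, 3.003 for OsPP2C51 and 2.33 for OsPP2C73. OsPP2C51 also differed between leaves at panicle elongation and at tillering, by 2.79, and OsPP2C27 between roots at panicle elongation and at tillering, by 2.54. Groups of 3 arrays were too small for a search for outlying samples.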

How the results depend on the processing

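Of the counts of called members under alternatives 259 stayed within 1.5 times the main count and 11 did not, and of the changes of single members 882 kept direction and call, 41 lost the call and 2 turned. OsPP2C73 turned to −2.12 (leaves against young panicles, drought change) and −3.65 (young panicles against leaves, control) without probe sets that may bind several transcripts. In roots at panicle elongation the methods' t-test with Benjamini-Hochberg adjustment called 3 members in place of 5, losing OsPP2C30 (adjusted p = 0.109) and PP2C68 (adjusted p = 0.129).

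With each array left out in turn the count was 3 to 6 in roots at panicle elongation (3 without control replicate 2), 6 to 6 in leaves at booting, 7 to 9 in leaves at panicle elongation, 3 to 3 in leaves at tillering, 4 to 5 in roots at tillering and 3 to 5 in young panicles. For differences in drought change it was 3 to 7 for leaves against roots at panicle elongation (3 without drought replicate 1 of roots), 0 to 1 for leaves against roots at tillering (OsPP2C30, without control replicate 3 of leaves), 0 to 1 for leaves at booting against panicle elongation (OsPP2C39 without control replicate 1 or 3 at panicle elongation, PP2C68 without control replicate 2 at booting), 2 to 3 at booting, and 1 to 1 between panicle elongation and tillering in leaves and in roots. For control levels it was 2 to 5 for leaves against roots at panicle elongation, 4 to 5 at tillering and 6 to 7 for young panicles against leaves.

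Replicate numbers were not shown to pair the samples: same-numbered control and droughted arrays had correlated deviations of 0.083 to 0.422 at tillering and −0.172 to 0.092 otherwise. With the replicate block each count of called members equalled that without it, for example 8 in leaves at panicle elongation, 6 in leaves at booting and 5 for leaves against roots at panicle elongation. Quantile normalization moved the median change of all genes by up to 0.14 (leaves at panicle elongation) and median centring by more than 0.1 in leaves (0.15, 0.13 and 0.10 at the 3 stages in turn). The members' median kept its sign under both, in each drought comparison, while that of all genes turned to 0.01 in roots at tillering under quantile normalization. Dim probe sets limit OsPP2C31 and OsPP2C69 in most groups and OsPP2C51 in control leaves and roots, since the lower quartile of all values is 28.3. The same holds for OsPP2C16 in control leaves at tillering and booting and in control roots at panicle elongation. With that floor the changes of OsPP2C51 in leaves were 3.93, 6.74 and 5.40 at the 3 stages in turn.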
